A study of Mus musculus with 12 samples.

Results

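The genes of fatty acid synthesis were examined in lungs of newborn mice that lacked cavin-1 and in lungs of wild type (WT) mice. The group was 10 genes, namely *Acly*, *Acaca*, *Fasn*, *Me1*, *Scd1*, *Scd2*, *Elovl1*, *Elovl5*, *Elovl6* and *Srebf1*. The genes were chosen with earlier results of these data known. Every probe that the array annotation assigned to them was taken, without regard to its signal. This gave 15 probes of 45281 on the array, of which 34885 carried 1 gene symbol, and 10 genes of 19057 after the probes of each gene were merged.

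Lung RNA from 6 cavin-1-deficient (KO) mice and 6 WT mice was hybridized to MouseWG-6 v2.0 arrays of Illumina, and each animal had 1 array. All animals were C57/bl6 by their labels and 0 to 6 h old, while the methods give a later upper limit for the age of newborns. Cavin-1, also called PTRF, is a coat protein needed for caveolae, the small invaginations of the cell membrane. According to the methods, the controls were littermates and the KO allele came from a targeting vector with a lacZ/neo cassette. The allele is not limited to any cell type, and WT lungs carried neither deletion nor treatment. The signal is from whole lung, so that fewer cells of a type and less RNA per cell cannot be told apart.

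The targeted gene was read before the others. The *Cavin1* probes had means of 11.64 ± 0.08 and 8.49 ± 0.28 on the log2 scale in WT lungs (SD, n = 6), and of 4.51 ± 0.79 and 2.07 ± 0.49 in 5 of the KO lungs (SD, n = 5). The remaining library, labelled KO 157, gave 11.64 and 8.45, within the WT range. The animal number in the title of KO 157 differs from that in its description. It was kept under its label, and results are given with it and without it. KO 192 stood apart on the second principal component, at −97.3 against −20.2 to 39.3 for the other 11 libraries. All 12 alveolar type 2 markers and all 10 general lung markers were detected in at least 1 lung. Between 45.3% and 49.1% of probes per array were detected, meaning a detection p under 0.05 against negative control beads.

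Fatty acid synthesis turns citrate into palmitate in the cytosol. ATP citrate lyase releases acetyl-CoA from citrate, acetyl-CoA carboxylase converts it to malonyl-CoA, and fatty acid synthase builds palmitate from both with NADPH. Desaturases and elongases then add a double bond or lengthen the chain, and SREBP-1 is a transcription factor that turns on many of these genes. In the lung around birth, alveolar type 2 cells use palmitate for the phosphatidylcholine of surfactant.

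Promoters are shown for *Fasn*, the central enzyme of the pathway, and for *Elovl5* and *Srebf1*. *Elovl5* and *Srebf1* were chosen by their signals, as the pair of members most closely related across lungs. Their correlation did not pass adjustment (permutation test, adjusted p = 0.117). Each window runs from 250 bases before to 50 bases after a transcription start in RefSeq on GRCm38.p6, and each is printed 5′ to 3′ on the strand of the gene. Capitals mark CCAAT or its reverse complement ATTGG, the core of the NF-Y site, and CACGTG, an E-box. The *Fasn* window is on the minus strand (chr11:120824498-120824797), the *Elovl5* window on the plus strand (chr9:77917115-77917414), and the *Srebf1* windows shown are on the minus strand (chr11:60222532-60222831 and chr11:60210422-60210721).
Fasn: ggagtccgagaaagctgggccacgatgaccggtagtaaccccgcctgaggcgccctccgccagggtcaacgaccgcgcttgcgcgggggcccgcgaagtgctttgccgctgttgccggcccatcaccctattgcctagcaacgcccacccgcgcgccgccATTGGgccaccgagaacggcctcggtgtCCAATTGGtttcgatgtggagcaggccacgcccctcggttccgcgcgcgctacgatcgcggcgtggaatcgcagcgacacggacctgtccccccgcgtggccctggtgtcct
Elovl5: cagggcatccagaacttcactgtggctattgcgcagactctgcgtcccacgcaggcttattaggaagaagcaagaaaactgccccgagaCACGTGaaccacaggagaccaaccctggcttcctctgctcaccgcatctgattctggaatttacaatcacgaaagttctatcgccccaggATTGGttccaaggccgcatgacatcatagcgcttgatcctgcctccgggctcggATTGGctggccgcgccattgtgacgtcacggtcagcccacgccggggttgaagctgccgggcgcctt
Srebf1, start farthest upstream: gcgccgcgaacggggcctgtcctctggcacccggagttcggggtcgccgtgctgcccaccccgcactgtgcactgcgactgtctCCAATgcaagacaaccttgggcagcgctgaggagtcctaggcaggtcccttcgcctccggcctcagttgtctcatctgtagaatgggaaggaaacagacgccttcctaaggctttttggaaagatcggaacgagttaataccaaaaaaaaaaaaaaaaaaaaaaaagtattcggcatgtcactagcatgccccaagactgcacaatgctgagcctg
Srebf1, start farthest downstream: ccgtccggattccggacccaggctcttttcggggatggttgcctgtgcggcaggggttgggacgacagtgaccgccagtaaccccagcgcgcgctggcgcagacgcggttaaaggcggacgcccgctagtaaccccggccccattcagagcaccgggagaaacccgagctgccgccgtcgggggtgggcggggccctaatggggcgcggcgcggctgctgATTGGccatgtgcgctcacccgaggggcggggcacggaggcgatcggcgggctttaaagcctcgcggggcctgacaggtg

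*Srebf1* has 3 windows, and the third, which lies between those shown, holds neither motif and is not printed. RefSeq windows were found for 8 of the 10 members, 12 windows in all, and none was found for *Scd1* and *Scd2*. CCAAT, searched on both strands, was in 7 of the 12 windows, from 6 of the 8 genes, and in 37.4% of all 32851 windows of this length. In *Fasn* the matches in CCAATTGG overlapped, 1 on each strand. CACGTG, which reads the same on both strands, was in 1 of the 12, that of *Elovl5*, and in 7.15% of all windows. The sterol response element of the LDL receptor gene, searched on either strand, was in 0 of the 12 and in 0.234% of all. These matches describe letters in the window and were not set against the signals.

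None of the 10 genes passed the threshold of an adjusted p under 0.05 in limma, a linear model run over all genes and adjusted by Benjamini-Hochberg, and none of the 15 probes did. Over the whole array this threshold was passed by 38 of 19057 genes (0.199%, of which 0.0945% higher and 0.105% lower in KO) and 58 of 45281 probes (0.128%). Without KO 157 it was passed by 22 genes (0.115%) and 25 probes (0.0552%), again with 0 members. At these shares, 0 of 10 genes and 0 of 15 probes is near the background. KO and WT values overlapped for all 15 probes, as they did for all but 1.44% of probes on the array. The lowest adjusted p of a member was 0.455 for genes and 0.270 for probes, and 0.345 and 0.322 without KO 157. An unadjusted p under 0.05 was found for 0 of the 10 genes and for 1 of the 15 probes, that of *Elovl6*, lower in KO, against 13.7% of genes and 13.4% of probes on the array (7.05% of probes being lower). Without KO 157 these were 1 gene (*Scd1*) and 2 probes (*Elovl6* and *Scd1*, both lower). The array had 12% of genes and 11.9% of probes at that p in the same fit, or 6.24% of probes in that direction.

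**Figure D1:**
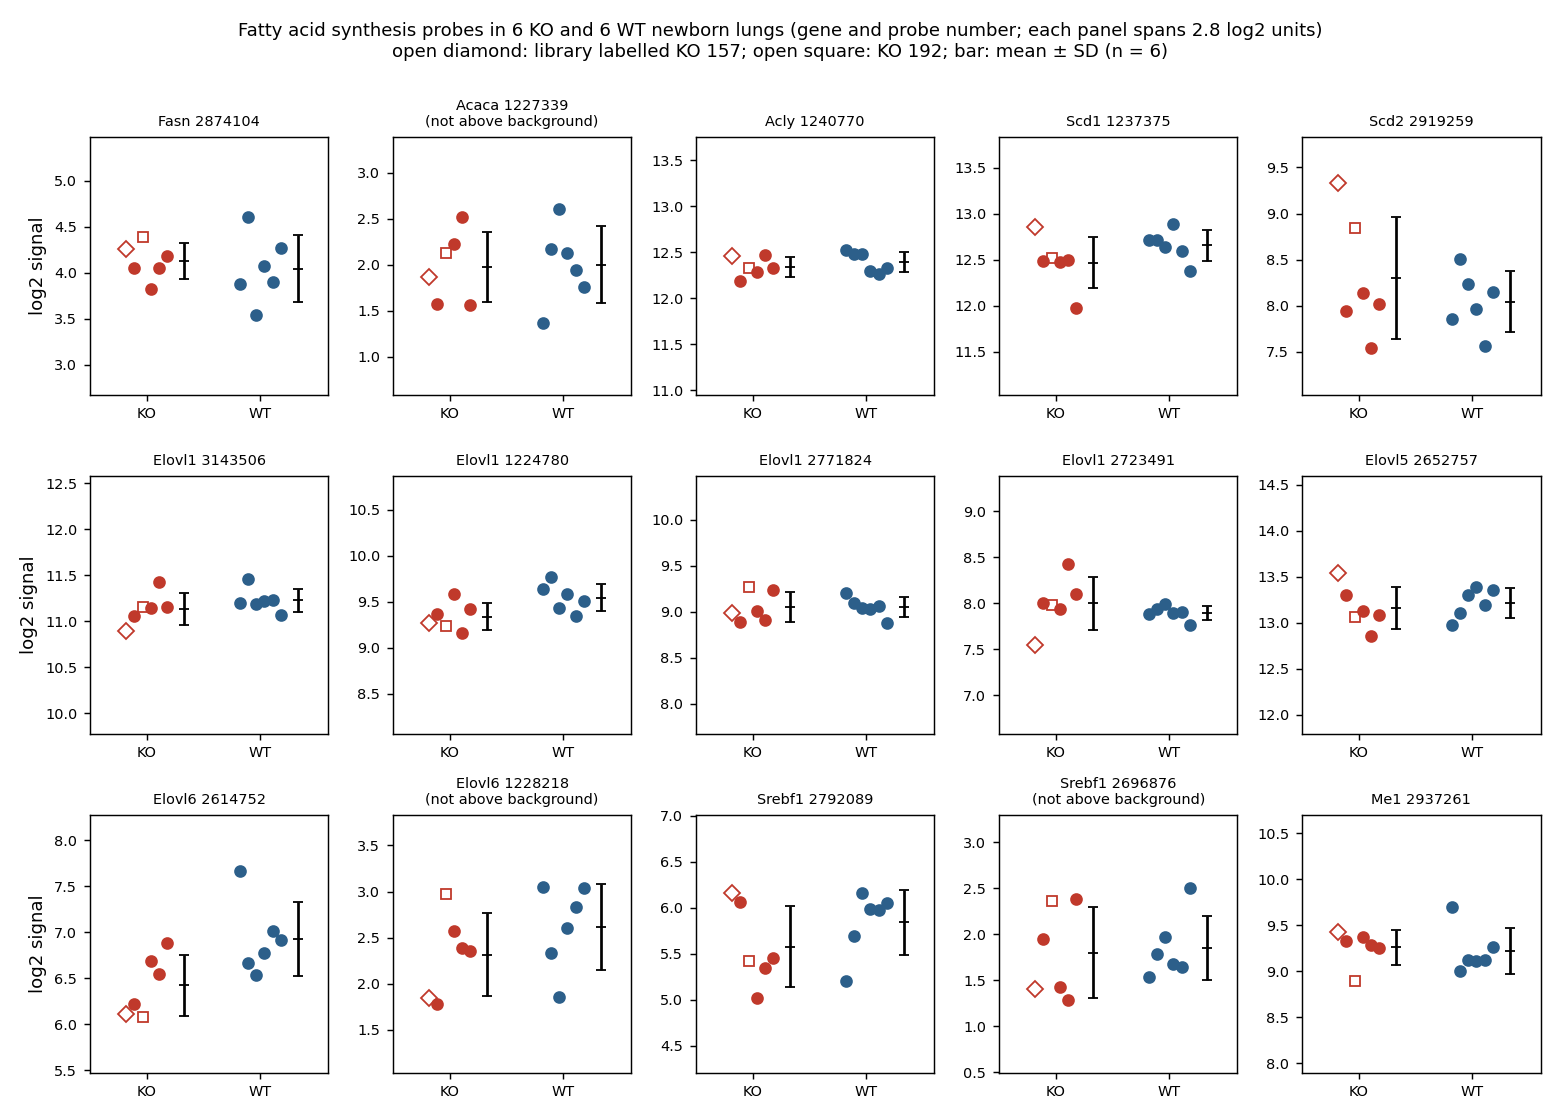
Log2 signal (vertical axis, RMA background and quantile normalization) of the 15 probes in 6 KO and 6 WT lungs, each panel with its own range of equal height. Points are single lungs, the open diamond is the library labelled KO 157, the open square is KO 192, and bars give the mean ± SD (n = 6); KO and WT points overlap in every panel, and the *Scd2* panel has KO 157 at 9.33 and KO 192 at 8.85 above all WT points.

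Of the 15 probes, 12 were above background in most lungs. The single *Acaca* probe (ILMN_1227339), for acetyl-CoA carboxylase, was not above background in any of the 12 lungs, with bead signals of 85.0 to 105 and detection p of at least 0.234. The second probe of *Elovl6* (ILMN_1228218) and the second of *Srebf1* (ILMN_2696876) were also not above background in any lung. For these 3 probes no fold is given. The signals of different probes were not set against each other.

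No enzyme that supplies or joins the building blocks passed the threshold. *Acly*, ATP citrate lyase, had log2 signals of 12.18, 12.33 and 12.47 in KO lungs (lowest, median, highest) and 12.26, 12.40 and 12.52 in WT lungs. The 2 groups lay over each other. The KO minus WT difference was −0.05 on the log2 scale (SE 0.08, 95% confidence interval −0.21 to 0.11, limma adjusted p = 0.832, n = 6 each), and the interval of the fold ran from 0.862 to 1.08.

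*Me1*, malic enzyme, which supplies NADPH, gave 8.90, 9.31 and 9.43 in KO lungs (lowest, median, highest) and 9.00, 9.13 and 9.70 in WT lungs. Its lowest lung was KO 192 and its highest was WT 142. Between genotypes the log2 difference was 0.04 (SE 0.12, interval −0.22 to 0.30, limma adjusted p = 0.923).

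*Fasn*, fatty acid synthase, was read by a dim probe (ILMN_2874104) with bead signals of 104 to 132, above the detection limit in 6 KO lungs and in 5 WT lungs at detection p of 0.00748 to 0.0684. It gave 3.83, 4.12 and 4.39 in KO lungs and 3.54, 3.98 and 4.61 in WT lungs, so that the KO range lay inside the WT range. The difference was 0.08 (SE 0.26, limma adjusted p = 0.929). Its interval of −0.46 to 0.63 was the widest of the 12 probes above background and spans folds of 0.727 to 1.54.

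The stearoyl-CoA desaturases, which place a double bond in stearate and palmitate, were read by 1 probe each. *Scd1* and *Scd2* are close neighbours on chromosome 19, with *Scd4* alone between them among coding genes. *Scd1* gave 11.98, 12.49 and 12.86 in KO lungs and 12.38, 12.68 and 12.89 in WT lungs. Its highest KO lung was KO 157 and its lowest was KO 238. KO minus WT was −0.18 (SE 0.11, interval −0.42 to 0.05, limma adjusted p = 0.512). Without KO 157 the 5 KO lungs lay between 11.98 and 12.52 and the log2 fold change was −0.26 (SE 0.11, interval −0.48 to −0.04). The unadjusted p was then 0.0218 and the adjusted p 0.322, and 11.9% of all probes had an unadjusted p under 0.05 in that fit.

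*Scd2* was the member that varied most among KO lungs. It gave 7.53, 8.08 and 9.33 in KO lungs and 7.56, 8.06 and 8.51 in WT lungs. The lungs of KO 157 (9.33) and KO 192 (8.85) were above all 6 WT lungs, and the other 4 KO lungs were within the WT range or just under it. The SD was 0.66 in KO and 0.33 in WT lungs (n = 6 each). The KO value was larger than that of 94.9% of the 17622 probes detected on every array, and the WT value larger than that of 77.7%.

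The mean difference of *Scd2* was 0.26 on the log2 scale (SE 0.24, interval −0.24 to 0.75, limma adjusted p = 0.690). It was 0.05 without KO 157 and −0.14 without KO 157 and KO 192. KO 157 has WT-level *Cavin1* and KO 192 stood apart over all probes. Their part in the spread of *Scd2* was not tested.

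**Figure D2:**
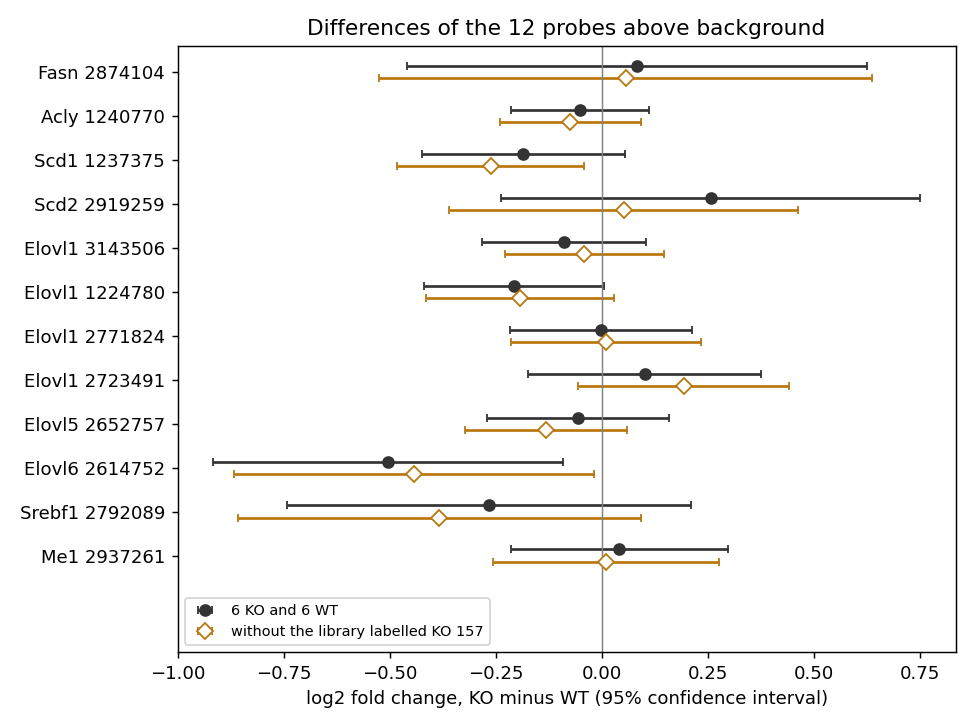
Log2 fold change of KO minus WT lungs (horizontal axis) for the 12 probes above background, with 95% confidence intervals from limma. Filled points are all 6 KO and 6 WT lungs and open diamonds leave out the library labelled KO 157; the interval of *Elovl6* lies below 0 in both, that of *Scd1* only without KO 157, and the intervals of the other 10 probes cross 0 in both.

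Of the elongases, which add carbon pairs to fatty acyl-CoA, *Elovl6* lengthens palmitate to stearate. Its measured probe (ILMN_2614752) gave 6.08, 6.39 and 6.88 in KO lungs and 6.53, 6.84 and 7.66 in WT lungs. The ranges overlapped, and 5 of the 6 KO lungs were below the WT median. WT 142 was the highest lung, and the WT mean of 6.93 was above 4 of the 6 WT lungs and all 6 KO lungs. The mean difference was −0.50 (SE 0.20, interval −0.92 to −0.09), a fold of 0.705 with an interval of 0.530 to 0.938.

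The unadjusted p of *Elovl6* was 0.0190 in limma and 0.0368 in a two-sided exact permutation test (n = 6 each), and 13.4% of all probes had an unadjusted p under 0.05. The adjusted p was 0.270, so that the difference did not pass the threshold. It was −0.44 without KO 157 (adjusted p = 0.399). Without WT 142 it was −0.36, the unadjusted limma p was 0.0621 and the adjusted p 0.414, and no member probe then had an unadjusted p under 0.05. Merged with the probe at background, *Elovl6* gave −0.40 (SE 0.22, limma adjusted p = 0.455).

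*Elovl1*, which lengthens saturated very long chains, was read by 4 probes, and their differences had no common direction. They were −0.09 (ILMN_3143506), −0.21 (ILMN_1224780), −0.00 (ILMN_2771824) and 0.10 (ILMN_2723491) on the log2 scale, with limma adjusted p between 0.391 and 0.996. The probe with the largest difference gave 9.17, 9.32 and 9.58 in KO lungs and 9.34, 9.55 and 9.77 in WT lungs. The ranges overlapped, and its interval was −0.42 to 0.01 (SE 0.10, two-sided exact permutation p = 0.0433, unadjusted, n = 6 each). The merged *Elovl1* had a log2 fold change of −0.10 (SE 0.09, interval −0.29 to 0.08).

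*Elovl5*, which lengthens polyunsaturated chains, gave 12.85, 13.11 and 13.54 in KO lungs and 12.97, 13.24 and 13.38 in WT lungs. KO 157 was the highest of all 12 lungs and KO 237 the lowest. The difference was −0.06 (SE 0.10, interval −0.27 to 0.16, limma adjusted p = 0.865) and −0.13 without KO 157.

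*Srebf1*, which encodes SREBP-1, was read by a probe (ILMN_2792089) with 5.02, 5.44 and 6.16 in KO lungs and 5.20, 5.98 and 6.17 in WT lungs. In KO lungs the 2 highest were KO 157 (6.16) and KO 186 (6.06), and the other 4 were at 5.02 to 5.45. In WT lungs 5 of the 6 were at 5.69 to 6.17 and WT 142 was at 5.20. The log2 difference was −0.27 (SE 0.23, interval −0.74 to 0.21, limma adjusted p = 0.662), and −0.38 without KO 157 (adjusted p = 0.526). The fold interval with all lungs was 0.597 to 1.16.

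Over the 9 merged genes with a probe above background, which leaves out *Acaca*, the median log2 fold change was −0.06, with 3 above 0 and 6 below, and a range of −0.40 to 0.26. Over all 19057 genes the median was −0.01, and the 5th and 95th percentiles were −0.50 and 0.49. All 9 merged values lay between these percentiles. The merged *Elovl6* includes its probe at background. Its measured probe alone gave −0.505, just under the 5th percentile of −0.498 for merged genes. Over the 12 probes above background the median was −0.05, with 4 above 0 and 8 below, and over the 17622 probes detected on every array it was −0.02. Without KO 157 the median of the 9 genes was −0.09.

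**Figure D3:**
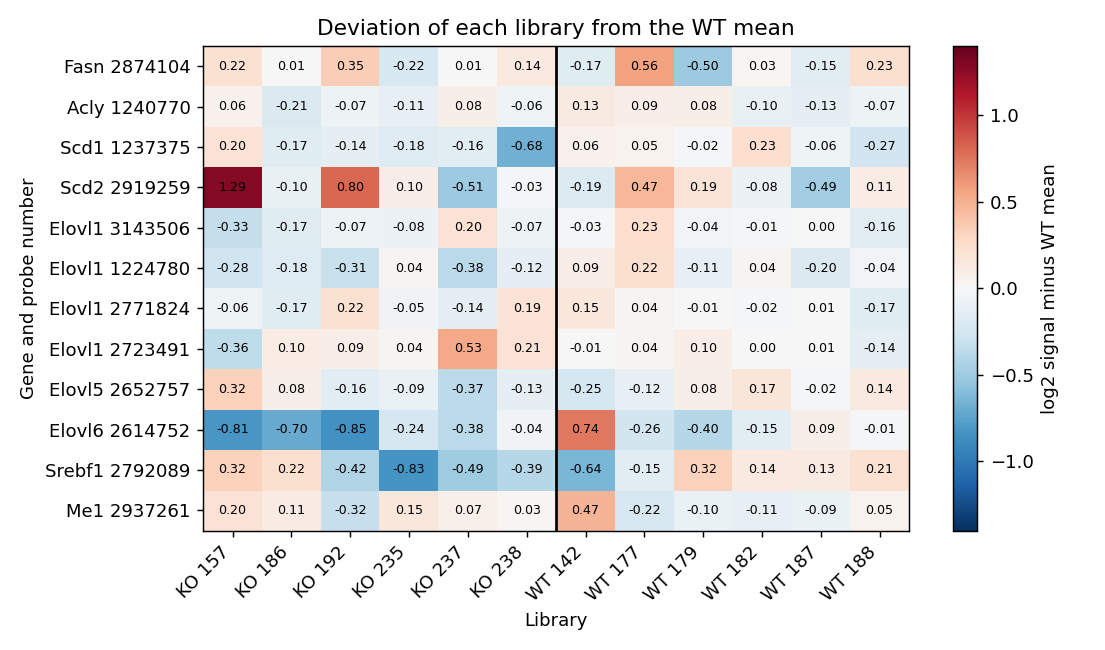
Log2 signal minus the WT mean of the same probe (color and number) for the 12 probes above background in each of the 12 libraries, with KO libraries to the left of the line. *Scd2* stands at 1.29 in KO 157 and 0.80 in KO 192. *Elovl6* (ILMN_2614752) is below 0 in all 6 KO lungs, KO 238 being at −0.04. It is also below 0 in WT 177 (−0.26), WT 179 (−0.40), WT 182 (−0.15) and WT 188 (−0.01), while WT 142 is at 0.74.

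Across lungs the members were correlated in both directions. With group means removed and the brightest probe taken, the 9 measured members gave 36 pairs, of which 20 had a positive and 16 a negative correlation, with a median r of 0.04. After Benjamini-Hochberg adjustment over the 36 pairs, 0 passed, and 4 had an unadjusted permutation p under 0.05 (100000 permutations within genotype). Since all genes of a lung share 1 array, such values also carry what that library shares.

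The highest correlation was that of *Elovl5* with *Srebf1* over 12 lungs, whose promoters are printed above. Pearson's r was 0.81 (permutation p = 0.00326, adjusted p = 0.117) and Spearman's rho 0.85 (permutation p = 0.00192, adjusted p = 0.0691). Pearson's r was 0.81 without the 2 lungs whose *Elovl5* residual was farthest from its median. It was 0.74 without KO 157, 0.77 within KO lungs and 0.89 within WT lungs (n = 6 each).

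*Elovl1* and *Elovl5* gave r = −0.79 (permutation p = 0.00812, adjusted p = 0.146) and rho = −0.79 (permutation p = 0.00395, adjusted p = 0.0711). The r was −0.77 without the 2 lungs farthest in *Elovl1*, −0.68 without KO 157, −0.97 within KO lungs and −0.45 within WT lungs. Only the brightest *Elovl1* probe (ILMN_3143506) was used, and its other probes were not correlated. In KO 237, the lung with the lowest *Elovl5*, ILMN_3143506 (11.43) and ILMN_2723491 (8.42) were at their KO maximum. There ILMN_1224780 (9.17) was at its KO minimum, and ILMN_2771824 (8.91) was within its KO range. *Elovl6* and *Srebf1* gave r = −0.70 (permutation p = 0.0202, adjusted p = 0.242) and rho = −0.62 (permutation p = 0.0528, adjusted p = 0.380). The r of this pair was −0.58 without the 2 lungs farthest in *Elovl6*. WT 142, with the highest *Elovl6* of all lungs (7.66), had the lowest *Srebf1* of the WT lungs (5.20).

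The 5 genes outside the group whose residuals followed the mean of the 10 members, *Acaca* at background included, most closely over the 12 lungs were *Vps13a* (r = 0.91), *Panx3* (r = 0.90), *Ccdc42* (r = 0.89), *Serinc2* (r = 0.89) and *Prl7b1* (r = 0.88). These are the highest values among all genes and are given as a description. The mean signals of *Panx3*, *Ccdc42* and *Prl7b1* were between 1.69 and 3.09 on the log2 scale, where probes not above background lie.

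Other genes of the pathway were counted next. Of 54 listed partners, that is enzymes and regulators around the 10 members, 50 were measured, and *Scd5*, *Acsl1*, *G6pdx* and *Nr1h2* were not analysed here. None passed the threshold (0.199% of all genes did), 6 higher and 5 lower had an unadjusted p under 0.05 (13.7% of all genes did), and the median log2 fold change was −0.09 over the 45 detected in at least 1 lung. Of 31 enzymes measured, 2 higher and 5 lower reached that p, and the median of the 27 detected was −0.11. *Olah*, among the 5 lower, was not above background in any lung. Of 19 regulators, 4 higher and 0 lower reached that p, and the median of the 18 detected was 0.13.

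*Hacd3*, a dehydratase that works with the elongases, came nearest to the threshold. It was at 11.90 to 12.30 in KO lungs and 12.32 to 12.69 in WT lungs, without overlap, as were 1.47% of all genes. The log2 fold change was −0.43 (SE 0.08, limma adjusted p = 0.0525), and −0.39 without KO 157 (adjusted p = 0.0879). It passed in 6 of 27 other settings.

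*Idh1*, a cytosolic source of NADPH, had a log2 fold change of −0.30 (limma adjusted p = 0.173). *Acacb*, the mitochondrial acetyl-CoA carboxylase, had 0.59 after merging (adjusted p = 0.257) and 0.99 on its brightest probe (adjusted p = 0.214). *Acsl5*, which activates long-chain fatty acids, had 0.40 after merging (adjusted p = 0.230), but its brightest probe gave −0.26. Its 4 probes thus disagreed in direction.

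Of the regulators, *Mbtps1*, the site-1 protease that cleaves SREBPs, had a log2 fold change of 0.29 (limma adjusted p = 0.234) and *Cebpa*, a transcription factor, 0.44 (adjusted p = 0.239). *Mlxipl*, which encodes ChREBP, had 0.44 (adjusted p = 0.338) with detection in 4 KO lungs and in 1 WT lung, and *Mlx*, its partner, had 0.33 (adjusted p = 0.344). The brightest probes of *Mbtps1* and *Mlx* gave 0.04 and 0.01.

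**Figure D4:**
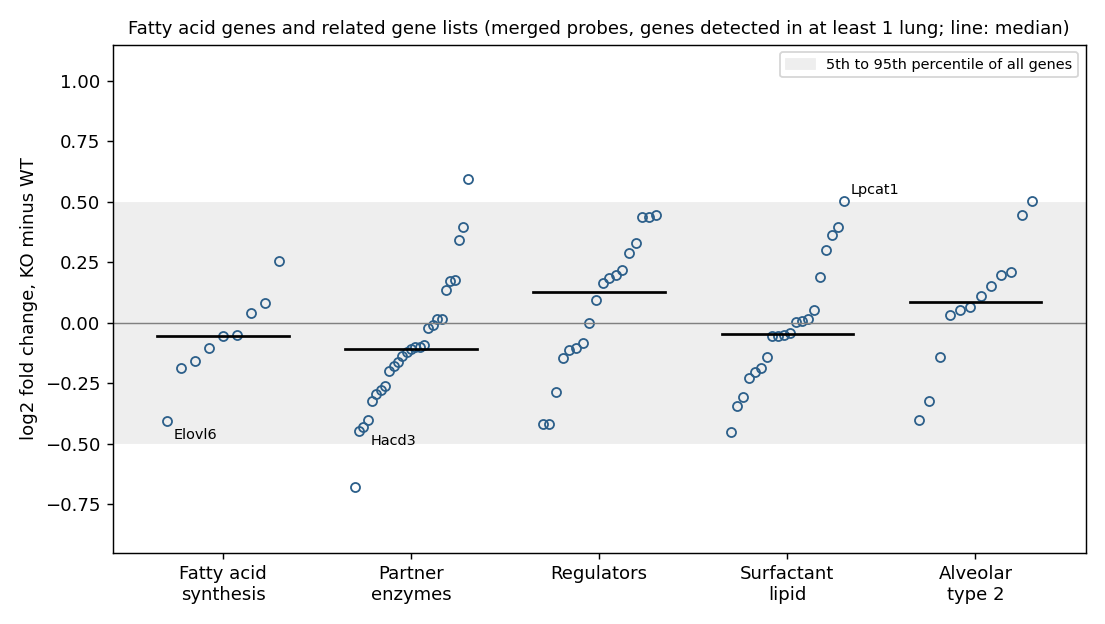
Log2 fold change of KO minus WT lungs (vertical axis) of each gene detected in at least 1 lung in 5 lists, with probes of a gene merged and the line at the median of those shown. The grey band runs from −0.50 to 0.49, the 5th to 95th percentile of all genes. The 9 fatty acid synthesis genes shown lie inside it, and *Acaca* is not shown. *Elovl6* (−0.40) is merged with its probe at background, and its measured probe alone (−0.505) lies just below the band. *Hacd3* (−0.43) and *Lpcat1* (0.50) are named because, with probes merged, they came nearest to the threshold in their lists.

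Genes that use palmitate for surfactant phospholipid were the third list. Of 21 listed, 20 were measured (*Prdx6* was not analysed here) and 0 passed limma's threshold. An unadjusted limma p under 0.05 was found for 3 higher and 2 lower, against 13.7% of all genes. The median log2 fold change was −0.05. *Lpcat1*, which makes dipalmitoyl phosphatidylcholine, had 0.50 (SE 0.13, adjusted p = 0.109), and 0.41 without KO 157 (adjusted p = 0.164). *Chkb*, a choline kinase, had 0.30 (adjusted p = 0.182). *Agpat1*, an acyltransferase of phosphatidic acid synthesis, had −0.45 (adjusted p = 0.243), and *Pgs1*, of phosphatidylglycerol synthesis, −0.20 (adjusted p = 0.299). These are merged values. *Fabp5* had −0.35 and *Lpin2* 0.36 after merging. Their brightest probes gave −0.56 (limma adjusted p = 0.0845 over all probes) and 0.81 (adjusted p = 0.112).

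Cell type markers were read beside these genes. For the 12 alveolar type 2 markers, the cells that make surfactant, the median log2 fold change was 0.09 and the summed linear signal ran from 91120 to 114752 in KO lungs and from 92363 to 109165 in WT lungs. Of these markers, 2 higher and 2 lower had an unadjusted limma p under 0.05 (13.7% of all genes did). Of 10 adipocyte markers measured, 7 were detected in at least 1 lung, and *Ucp1*, *Retn* and *Plin1* in none. Of the 10, 2 higher and 2 lower reached that p. The higher were *Pnpla2* and *Cidea*, and the lower were *Retn* and *Ucp1*, both not above background. *Cidea* had a log2 fold change of 1.06 (limma adjusted p = 0.205), with detection in 6 KO and 4 WT lungs. It was 1.30 without KO 157 (adjusted p = 0.134). The summed signal of the adipocyte markers was 2426 to 5115 in KO and 1754 to 2530 in WT lungs. Most of it came from *Pnpla2*, at 11.15 to 12.29 in KO and 10.66 to 11.23 in WT lungs on the log2 scale. *Adipoq* had means of 4.49 and 3.98, and *Fabp4* of 3.65 and 3.69. The log2 sum was highest in KO 157 (12.32), the lung with the highest *Scd2*. KO 186 came next (12.07), and its *Scd2* (7.94) was below the WT mean (8.04). Cells of other organs were also looked for. Of 7 hepatocyte markers, 6 were detected in at least 1 lung. *Alb* was detected in 1 KO lung and in 0 WT lungs, and *Fgb* in none. At an unadjusted limma p under 0.05, 4 were higher and 0 lower, against 13.7% of all genes. The median log2 fold change over the 6 was 1.37, and summed signals were 428 to 11108 in KO and 504 to 1743 in WT lungs. On the log2 scale this sum was highest in KO 192 (13.44), a lung with high *Scd2*. It was lowest in KO 157 (8.74), the lung with the highest *Scd2*. All 7 skeletal muscle markers measured were detected, with 4 higher and 0 lower at that p. Their median was 2.08, and sums were 1374 to 26523 in KO and 1638 to 36085 in WT lungs. Macrophage markers (5 measured) had a median of 0.36, with 2 higher and 0 lower at that p. Lipofibroblast markers (6 measured) had a median of 0.06 and erythroid markers (3 detected of 4 measured) −0.03, each with 0 at that p. None of these lists had a gene past the threshold. The part of any of these cells in the signals of the members was not tested.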

How the data were processed

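Lung RNA of 6 KO and 6 WT mice was read on 1 array each. The deposited intensity values were mean bead signals per probe from GenomeStudio V2011.1, neither background-corrected nor normalized, and the authors deposited a detection p-value beside each. Array medians were 97.0 to 121.5, and no 2 libraries had identical values. A second table of the authors, with background-subtracted and quantile-normalized intensity, was used as an alternative with values under 16 set to 16.

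Signals were corrected by the normal-exponential background of RMA, quantile-normalized and taken to log2 in R 4.3.3, with no detection filter. Where a gene had several probes, their median was used. The genotypes were compared with limma 3.58.1 (trend, Benjamini-Hochberg, threshold 0.05) over all genes and over all probes, and single values with a two-sided exact permutation test over 924 splits, whose smallest p is 0.00216. The tests were tried on simulated data. Replicates are separate animals. The number of arrays limits the precision, and signal over background limits what can be seen. The labels name no BeadChip per array, so no batch was fitted. Of the probes, 18 had several genes and 10378 had none, and these entered the probe fit only.

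Named by rule are all members, *Cavin1* and the 5 genes most like the members. For the enzyme, regulator and surfactant lipid lists, up to 4 genes of smallest p are also named. Cell type markers, *Olah*, *Scd4*, *Fabp5* and *Lpin2* were named outside this rule, as were listed genes not analysed. The members and lists were chosen with earlier results of these data known. The alternatives tried were other settings of background and scaling, the second table, detection filters, the brightest probe, other tests including SAM (100 permutations) and the methods' t-test, array weights, and libraries left out. Plots were drawn with matplotlib 3.10.9 in Python 3.11.15.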

Additional observations from a re-analysis of the deposited data

Results flagged for a closer look

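Single lungs far from the rest of their group were looked for in 50 groups of 6, and 9 were found; chance gives about 1 in 20 groups. Among the members, *Me1* in KO 192 was at 8.90 on the log2 scale, against 9.25 to 9.43 in the other KO lungs. *Cavin1* in the library labelled KO 157 was at 11.64 and 8.45 on its probes, against 3.56 to 5.33 and 1.66 to 2.86 in the other KO lungs. The log2 summed signal of the lipogenic regulators in KO 157 was 12.33, against 12.01 to 12.08. That of the adipocyte markers, which is mostly *Pnpla2*, was 10.78 in WT 142, against 11.11 to 11.30 in the other WT lungs. That of the skeletal muscle markers was 10.42 in KO 157, against 13.23 to 14.69, and 15.14 in WT 187, against 10.68 to 12.16. That of the macrophage markers was 10.49 in KO 192, against 11.03 to 11.31, and 11.57 in WT 142, against 10.54 to 10.90.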

How the results depend on the processing

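No paired analysis was possible because KO and WT libraries share no replicate numbers in the labels; the study describes its array animals as pairs of littermates, but the labels do not say which lungs belong together, and every fit here treats them as unpaired. The count of member genes past the threshold was 0 in all 27 other settings and that of member probes 0 in 25, with 0 to 2 genes and 0 to 2 probes at an unadjusted p under 0.05, and the lowest adjusted p of a member was 0.171, for *Elovl6* under the stricter detection filter. The 15 member differences followed were those of the 12 probes above background and the merged values of *Elovl1*, *Elovl6* and *Srebf1*. Probes not above background were not followed. Of these 15 differences, 10 kept their sign throughout, the merged values included. *Elovl6* (ILMN_2614752) ran from −0.60 to −0.26. Differences near 0 changed sign: *Elovl1* (ILMN_2771824) was 0.00357 with array weights and 0.0105 with the stricter filter and no KO 157, and −0.0459 to 0.0309 over libraries left out. *Elovl5* ran from −0.13 to 0.01 (0.00511 without KO 237), *Fasn* from −0.0175 (without WT 179) to 0.20 and *Me1* from −0.00 to 0.14 (−0.00213 without WT 177). Without KO 157 and KO 192, a setting chosen after seeing the data, *Fasn* was −0.0160 and *Scd2* −0.14; without KO 157 alone *Scd2* was 0.05. The count over all genes was 6 with median scaling, 20 with the authors' values, 106 with the stricter filter, 1 without a trend, 91 with array weights, 0 with the methods' t-test (2459 at an unadjusted p under 0.05), 9 with SAM and 79 without KO 157 and KO 192. It ranged from 0 to 232 over libraries left out: 232 without KO 192, 24 without WT 142, 22 without KO 157, 15 without KO 235, 14 without KO 237, 9 without KO 186, 4 when WT 177 or WT 188 was omitted, and 0 in limma when KO 238, WT 179, WT 182 or WT 187 was omitted (2234 to 2340 at an unadjusted p under 0.05). In the same order the count over all probes was 23, 0 (4079 unadjusted, limma), 250, 0 (5589 unadjusted, limma), 234, 0 (t-test, 5780 unadjusted), 8 and 270; it was 116 with the milder filter and ranged from 0 without KO 238 (5521 unadjusted, limma) to 581 without KO 192, with 37 without WT 187, 25 without KO 157, 15 without WT 182, 11 without WT 177, 10 without WT 179 and 1 without WT 188. The count of lipogenic partners was 1 (*Hacd3*) under both filters, with the brightest probe, with array weights, and without KO 192 or WT 142, and 0 to 1 over libraries left out; that of surfactant lipid genes was 1 (*Lpcat1*) without KO 192 and 0 to 1 over libraries left out. The cause was not tested. Signal near background limits *Fasn*, and *Acaca* could not be measured.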
